A study of Mus musculus with 96 samples.

Results

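The genes of the VEGF receptors (Kdr, Flt1 and Flt4), the Tie receptors (Tek and Tie1) and endoglin (Eng) were followed through the formation of mouse haematopoietic stem cells (HSCs). These 6 genes were taken by symbol from a table of raw read counts for 19836 genes in 96 single cells of C57BL/6 embryos. HSC precursors (pre-HSCs) came from embryonic day E11.5: 48 cells from the aorta-gonad-mesonephros region (AGM), where definitive HSCs arise, and 16 from the yolk sac. HSCs came from the fetal liver, with 16 cells each at E12.5 and E14.5. The gate for either E11.5 tissue was CD144+ c-Kit+ EPCR+ without Ter119 or CD11b. The E12.5 gate was Sca-1+ c-Kit+ EPCR+ without Ter119, and the E14.5 gate Sca-1+ c-Kit+ CD150+ without Ter119 or CD48. CD144, the product of Cdh5, is itself an endothelial protein, so the E11.5 gate selected for an endothelial surface marker that the liver gates did not use. Tissue, age and gate change together between AGM and liver and cannot be told apart. Since no animal or litter is named, a group counts as 1 sample, and no difference below has a replicate check or a test.

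Blood stem cells of the embryo form from haemogenic endothelium, flat vessel cells that lose endothelial features and enter the circulation. Kdr (VEGFR2) is the main signalling receptor for VEGF-A, Flt1 (VEGFR1) binds VEGF-A tightly with weak kinase activity and is also made as a soluble decoy, and Flt4 (VEGFR3) binds VEGF-C and VEGF-D. Tek (Tie2) binds the angiopoietins and is present on endothelium and on HSCs. Tie1 has no well-established ligand of its own and modulates Tek. Endoglin is an accessory receptor for TGF-beta and BMP ligands on endothelium and on HSCs.

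All 6 symbols matched a single row each. In the GENCODE annotation of the mm10 assembly, Kdr lies on chromosome 5 at chr5:75932827-75978458 on the minus strand and Flt1 on the same chromosome at chr5:147561604-147726011, also on the minus strand. Tek and Tie1 share chromosome 4, with Tek at chr4:94739289-94874976 on the plus strand and Tie1 at chr4:118471191-118490061 on the minus strand. Flt4 lies at chr11:49609263-49652739 and Eng at chr2:32646595-32682669, both on the plus strand. The counts are per gene, so soluble and membrane-bound isoforms of Flt1 and Kdr could not be separated.

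Promoter DNA is shown for a pair of the VEGF receptor genes, whose reads were scarce in liver, and for Tek and Eng, whose reads were not. The bases come from the RefSeq promoter table of GRCm38.p6 (mm10) and cover the stretch just upstream of each annotated start, read 5′ to 3′ along the gene's strand. Capitals mark GGAA or its reverse complement TTCC, the core letters bound by ETS-family factors such as Etv2 and Ets1, which control many endothelial genes. The windows are chr5:75978459-75978705 (minus) for Kdr, chr5:147726012-147726261 (minus) for Flt1, chr4:94739039-94739288 (plus) for Tek and chr2:32646345-32646594 (plus) for Eng.
Kdr: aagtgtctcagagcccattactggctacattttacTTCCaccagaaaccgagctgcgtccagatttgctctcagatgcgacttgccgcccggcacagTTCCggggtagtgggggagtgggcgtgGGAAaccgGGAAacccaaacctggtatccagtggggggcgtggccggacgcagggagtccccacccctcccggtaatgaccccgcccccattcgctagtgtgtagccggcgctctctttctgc
Flt1: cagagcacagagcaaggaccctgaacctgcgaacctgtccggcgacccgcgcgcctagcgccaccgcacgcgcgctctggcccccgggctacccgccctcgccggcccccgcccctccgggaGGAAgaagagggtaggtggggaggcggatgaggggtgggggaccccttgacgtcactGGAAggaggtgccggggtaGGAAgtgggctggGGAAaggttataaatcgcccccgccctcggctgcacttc
Tek: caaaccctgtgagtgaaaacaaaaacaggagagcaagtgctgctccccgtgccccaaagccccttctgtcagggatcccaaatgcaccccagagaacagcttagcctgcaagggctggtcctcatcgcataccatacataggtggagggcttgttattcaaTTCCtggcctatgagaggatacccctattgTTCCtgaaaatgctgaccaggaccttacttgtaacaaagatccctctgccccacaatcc
Eng: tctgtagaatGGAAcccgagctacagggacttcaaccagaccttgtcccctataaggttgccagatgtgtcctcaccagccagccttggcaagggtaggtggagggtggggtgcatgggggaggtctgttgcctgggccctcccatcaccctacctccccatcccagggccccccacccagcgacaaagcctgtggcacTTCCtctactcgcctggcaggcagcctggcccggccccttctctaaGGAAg
In the 250 bases before the start, searched on both strands, Kdr and Flt1 each hold 4 such matches, Eng 3 and Tek 2. Of the members whose windows are not shown, Tie1 holds 7 and Flt4 holds 2, so the number does not divide the VEGF receptor genes from the others. The core is short and common: 93.4% of 32851 promoter windows of the same length hold at least 1, with a median of 3. GATA or its reverse complement TATC, the core of the GATA-factor motif, occurs once in the Kdr window and once in that of Tek, and 53.6% of all windows hold it. These matches are a description of the letters.

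Depth and marker content of the cells bear on every value. Cells held 250235 to 1926882 reads assigned to genes, and the groups' pooled totals lay between 19053123 (E12.5) and 60280645 (AGM). A median of 5522.5 genes was detected per AGM cell, 5349.5 per yolk sac cell, 4036 per E12.5 cell and 4839 per E14.5 cell. No pair of cells had identical columns. Of the gate's own transcripts, Cdh5 was read in 45 of the 48 AGM cells but in 7 of 16 yolk sac pre-HSCs, and Procr, which encodes EPCR, was read in 41 AGM and 6 yolk sac cells. At E14.5, Slamf1 (CD150) was read in 4 of 16 cells and Cd48 in 6 of 16, so transcripts follow the labelled surface gate only in part.

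Several cells stood apart from their groups. AGM cell 3 had the highest summed level of 12 endothelial markers, 17116 CPM against 7976 CPM in the next AGM cell. It had reads of 11 of these markers but of only 1 of 10 haematopoietic markers. That was the lowest haematopoietic count in AGM, where the median was 8. E12.5 cell 8 had the fewest genes (1011), the fewest reads (250235), no read of the 10 haematopoietic markers, 15761 CPM of macrophage markers and no read of any of the 6 receptor genes. Of the E14.5 cells, 3 had more than 100000 CPM of erythroid markers. More than 9000 genes were detected in 8 cells, 4 from AGM, 3 from yolk sac and 1 from E12.5 liver, and each of these had reads of 4 to 6 of the receptor genes. AGM cells also differed by label number, which the labels do not explain: the median number of receptor genes was 4.5 in cells 1 to 16, 3 in cells 17 to 32 and 3 in cells 33 to 48, with 6572, 5483.5 and 4493.5 genes detected. Kdr was read in 12, 8 and 4 cells of these runs of 16, Tek in 12, 13 and 5, and Tie1 in 16, 10 and 12. These splits and the cells above were picked out after the values were seen.

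Each gene's level is given as CPM, counts of a gene relative to all gene-assigned counts, on the usual CPM scale. For a group, reads of all its cells were summed before scaling. Brackets give exact 95% intervals, Poisson for pooled CPM and Clopper-Pearson for shares of cells, and both cover counting error only. In every group the lowest cell was at 0 for each of the 6 genes.

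VEGF receptor transcripts were read in most AGM pre-HSCs and in few liver HSCs. At least 1 of the 3 genes was read in 35 of the 48 AGM cells (72.9%; 58.2 to 84.7%), in 10 of 16 yolk sac pre-HSCs (62.5%; 35.4 to 84.8%), and in 2 of 16 liver cells at each age (interval 1.55 to 38.3%). The liver intervals lie below that of AGM, while the interval of the yolk sac overlaps both.

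Kdr was read in 24 of the 48 AGM cells (50.0%) and 6 of 16 yolk sac pre-HSCs (37.5%). At E12.5 none had a read (0 of 16, which allows a share of up to 18.8% when 3 cells are taken as the limit of a count of 0), and at E14.5 a read was found in 1 of 16. Its per-cell level in AGM had a median of 0.444 CPM and reached 654 CPM in cell 36 and 506 CPM in cell 3. In yolk sac the median was 0 and the 6 cells with reads stood at 144.4, 106, 82.9, 70.6, 39.8 and 1.18 CPM. The single E14.5 cell held a single read, or 0.657 CPM. Kdr therefore split each E11.5 tissue into cells with and without reads, and liver cells fell with the latter. Pooled Kdr was 38.95 CPM in AGM (37.4 to 40.6) and 32.8 CPM in yolk sac (30.4 to 35.2), and 3 cells supplied 62.4% of the AGM reads.

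Flt1 was read in 29 of the 48 AGM cells (60.4%), 8 of 16 yolk sac pre-HSCs (50.0%) and 2 of 16 cells at each liver age. AGM cells had a median of 6.26 CPM and a highest value of 416 CPM, and yolk sac cells a median of 4.14 and a highest value of 95.5 CPM. The E12.5 cells with reads were cell 3 at 104 CPM and cell 1 at 9.0 CPM, and the E14.5 cells were cell 2 at 249 CPM and cell 7 at 5.91 CPM. The liver cells were at 0 apart from these 4, but E12.5 cell 3 and E14.5 cell 2 lay within the range of the AGM cells with reads. Pooled Flt1 was 52.8 CPM in AGM, 27.3 in yolk sac and, in liver, 10.7 at E12.5 and 8.02 at E14.5. Removing E12.5 cell 3 left 0.524 CPM at E12.5, and removing E14.5 cell 2 left 0.451 CPM at E14.5.

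Flt4, the receptor best known from lymphatic and venous endothelium, was the rarest. It was read in 4 AGM cells (8.33%; 2.32 to 19.98%), at 103 CPM in cell 36, 58.7 in cell 21, 35.1 in cell 38 and 14.3 in cell 25. The only other reads were 2 in yolk sac cell 1. No liver cell had a read, which allows shares of up to 18.8% at each age. The AGM share itself lies under that limit, so the absence of Flt4 reads in 16 liver cells is not distinguishable from the AGM share at this number of cells. Pooled AGM Flt4 was 4.08 CPM, 2.58 CPM without cell 36 and 2.72 CPM without cell 21.

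Tie receptor transcripts were read in most cells of all groups. Tek or Tie1 was read in 43 of the 48 AGM cells (89.6%; 77.3 to 96.5%), 12 of 16 yolk sac pre-HSCs (75%; 47.6 to 92.7%) and 11 of 16 liver cells at each age (68.8%; 41.3 to 89.0%), and all of these intervals overlap.

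Tek was read in 30 of the 48 AGM cells (62.5%), 8 of 16 yolk sac pre-HSCs (50.0%) and 6 of 16 cells at each liver age (37.5%). Per-cell medians were 15.4 CPM in AGM, 0.401 in yolk sac and 0 in both liver groups. The highest cells were AGM cell 3 at 1036 CPM, yolk sac cell 2 at 170 CPM, E12.5 cell 12 at 253 CPM and E14.5 cell 13 at 363 CPM. Liver Tek was thus a matter of a few strongly positive cells: the E12.5 cells with reads stood at 253, 148.7, 62.0, 9.54, 5.72 and 3.55 CPM and the E14.5 cells at 363, 119, 70.2, 53.3, 21.4 and 0.657 CPM. Pooled Tek was 72.7 CPM in AGM, 21.6 in yolk sac and, in liver, 27.7 at E12.5 and 37.5 at E14.5. Single cells weighed on each of these values. AGM stood at 54.0 CPM without cell 3 and yolk sac at 12.6 CPM without cell 2. E12.5 stood at 14.4 CPM without cell 2 and E14.5 at 16.2 CPM without cell 13.

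Tie1 was read in 38 of the 48 AGM cells (79.2%), 11 of 16 yolk sac pre-HSCs (68.8%), 7 of 16 E12.5 HSCs (43.8%) and 8 of 16 E14.5 HSCs (50.0%). Per-cell medians were 56.9 CPM in AGM, 38.6 in yolk sac and, in liver, 0 at E12.5 and 0.341 at E14.5, and the highest cells reached 819.3, 493.1, 203.5 and 160.3 CPM. Both the share and the highest cell were larger at E11.5 than in liver, with wide overlap among the cells that had reads. Pooled Tie1 was 138 CPM in AGM, 82.9 in yolk sac (55.0 without cell 15), 54.1 at E12.5 and 34.5 at E14.5.

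Taken as the fold between the highest and lowest group, endoglin had the narrowest range of pooled CPM. In percentage points, its shares of cells did not have the narrowest range. Eng was read in 40 of the 48 AGM cells (83.3%; 69.8 to 92.5%), 10 of 16 yolk sac pre-HSCs (62.5%; 35.4 to 84.8%), 11 of 16 E12.5 HSCs (68.8%; 41.3 to 89.0%) and 8 of 16 E14.5 HSCs (50.0%; 24.7 to 75.3%). Per-cell medians were 38.05, 3.38, 6.54 and 1.88 CPM, in the same order, and the highest cells stood at 158.6, 85.5, 164.6 and 89.7 CPM. The AGM cells filled the middle of this range, while many yolk sac and liver cells lay near 0. Pooled Eng was 41.3 CPM in AGM, 25.6 in yolk sac and, in liver, 27.1 at E12.5 and 16.8 at E14.5.

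**Figure D1:**
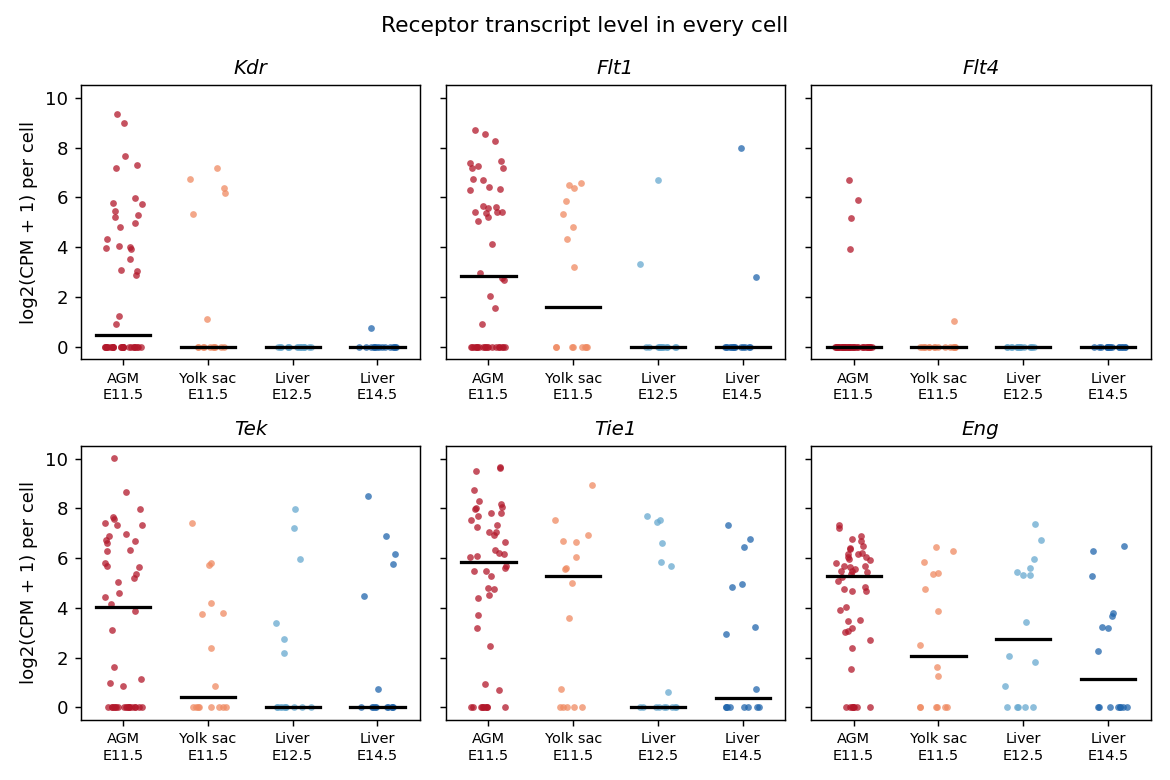
Level of each receptor gene in every cell on a log2(CPM + 1) scale, by group; each point is a cell and each bar the median of its group. Kdr points lie at 0 in all 16 E12.5 cells, while Tek, Tie1 and Eng show raised points in all 4 groups.

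Divided by exon length (union of annotated exons, from 4048 bases for Eng to 13504 for Flt1), pooled levels could be compared between genes. In AGM the order was Tie1 (28.1 CPM per kilobase), Tek (15.4), Eng (10.2), Kdr (4.31), Flt1 (3.91) and Flt4 (0.496), with no overlap between the counting intervals of neighbours. Those intervals do not cover the spread between cells. Without AGM cell 3, Kdr was 29.9 CPM and Flt1 46.6 CPM before division, and the order of Kdr and Flt1 per kilobase turned. In yolk sac it was Tie1 (16.9), Eng (6.31), Tek (4.58), Kdr (3.63), Flt1 (2.02) and Flt4 (0.011). At E12.5 Tie1 (11.01) was followed by Eng (6.70) and Tek (5.88), whose intervals overlap, and by Flt1 (0.793). At E14.5 Tek (7.95) and Tie1 (7.02) had overlapping intervals above Eng (4.15) and Flt1 (0.594). With all cells pooled, the VEGF receptors thus ranked below the Tie receptors and endoglin in every group, and fell furthest behind in liver. In yolk sac the place of Tek rested on few cells. Among its cells with fewer than 9000 genes detected, Tek was 4.40 CPM, against 20.5 for Kdr and 16.2 for Flt1. Divided by exon length, Tek then lay below both.

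**Figure D2:**
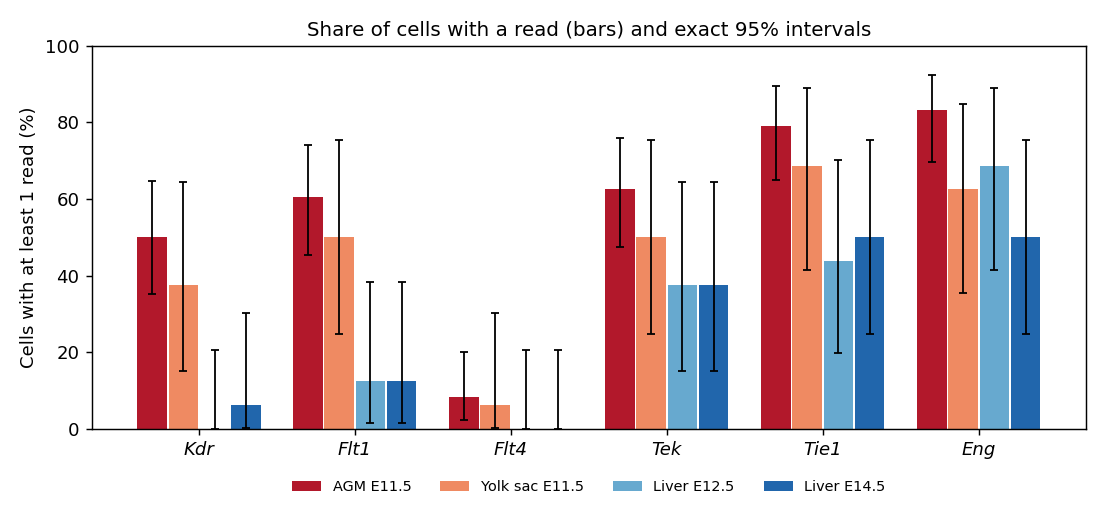
Share of cells with at least 1 read of each receptor gene, by group; bars are shares of 48 AGM cells or 16 cells of another group, and lines are exact 95% intervals for counting error. Kdr and Flt1 shares are 50.0% and 60.4% in AGM and no liver group has more than 2 of 16 cells with either, while Eng stays at 50.0% or more in each group.

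Fewer genes were detected per cell at E12.5 than in AGM, so shares were also computed with every cell thinned to 250000 reads. Kdr was then read in 45.8% of AGM and 31.2% of yolk sac pre-HSCs and in 0% of HSCs at either liver age, and Flt1 in 58.3% and 50.0% of E11.5 AGM and yolk sac cells and in 2 of 16 cells at each liver age. Tek stood at 56.2%, 37.5%, 31.2% and 31.2%, Tie1 at 72.9%, 62.5%, 37.5% and 37.5%, and Eng at 81.2%, 56.2%, 56.2% and 43.8%. The low liver shares of Kdr and Flt1 were thus also present at an equal number of reads, though the number of genes detected per cell was not equalised. Leaving out E12.5 cell 8, which had macrophage markers, Tek was read in 6 of 15 cells (40%), Tie1 in 7 (46.7%) and Eng in 11 (73.3%), and Kdr in 0. Without the 3 E14.5 cells rich in erythroid reads, Kdr was read in 1 of 13 cells, Flt1 in 2, Tek in 4, Tie1 in 7 and Eng in 8.

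Individual cells combined the receptors in different ways. The number of the 6 genes with a read per cell had a median of 3.5 in AGM (range 0 to 6), 2.5 in yolk sac (0 to 6), 2 at E12.5 (0 to 4) and 1 at E14.5 (0 to 5). At least 4 were read in 24 of the 48 AGM cells, 5 of 16 yolk sac pre-HSCs and 1 of 16 cells at each liver age. Reads of all 6 were found in 3 AGM cells and 1 yolk sac cell. None of the 6 was read in 1 AGM and 2 yolk sac pre-HSCs and in 3 E12.5 and 2 E14.5 HSCs.

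**Figure D3:**
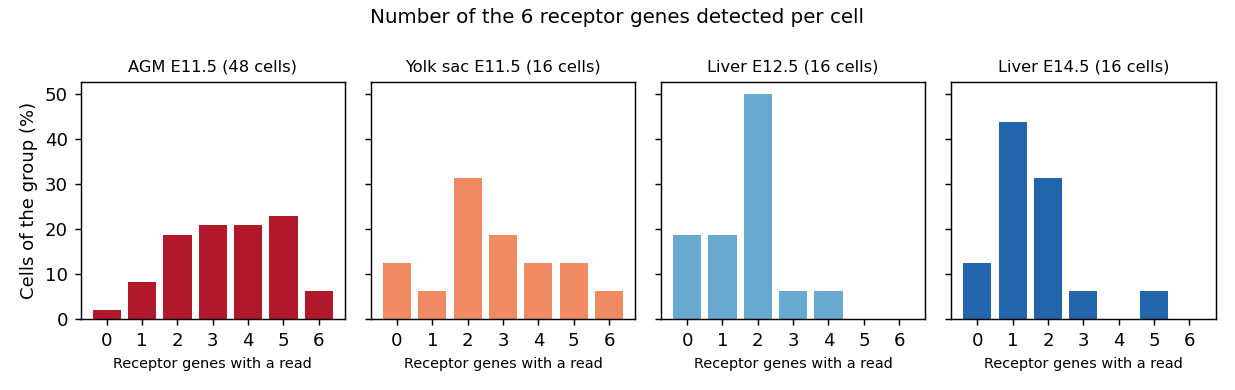
Number of the 6 receptor genes with a read per cell (horizontal) against the percentage of cells of the group (vertical), 1 panel per group. The AGM panel is broad with a median of 3.5, and the liver panels gather at 1 and 2 genes.

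A VEGF receptor read never occurred without a read of a Tie receptor or Eng: this was seen in 0 of 48 AGM cells, which allows up to 6.25%, and in 0 of 16 cells of each other group, which allows up to 18.8%. Few cells could have shown it, so it says little about dependence between the genes. A Tie receptor or Eng was read in 47 of 48 AGM and 14 of 16 yolk sac cells, 13 of 16 at E12.5 and 14 of 16 at E14.5. The reverse pattern, a Tie receptor or Eng without any VEGF receptor, was found in 12 of 48 AGM cells (25%), 4 of 16 yolk sac pre-HSCs (25%), 11 of 16 E12.5 HSCs (68.8%; 41.3 to 89.0%) and 12 of 16 E14.5 HSCs (75%; 47.6 to 92.7%). Reads of both Tie receptors in the same cell were found in 25 of 48 AGM cells, 7 of 16 yolk sac pre-HSCs, 2 of 16 E12.5 HSCs and 3 of 16 E14.5 HSCs. Most liver cells with a Tie transcript therefore had reads of Tek or of Tie1 but not of both. At E12.5 all 6 cells with Tek reads also had Eng reads, and at E14.5 this held for 3 of 6.

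The 4 liver cells with VEGF receptor reads were not alike. E12.5 cell 1, which had Flt1, Tek, Tie1 and Eng reads, had 10509 genes detected and reads of 9 of 12 endothelial markers. E12.5 cell 3 had Flt1 and Tie1 reads, and E14.5 cell 2 had Flt1 and Tek reads, with no Eng read in either. E14.5 cell 7 had reads of 5 receptor genes, among them the single Kdr read. High Flt1 in liver was thus found apart from Kdr and Eng.

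Within AGM, Tie1 and Eng were read together in 34 cells, Flt1 and Tie1 in 26, Tek and Tie1 in 25 and Kdr and Flt1 in 18. The 18 cells were 75% of those with Kdr reads and 62.1% of those with Flt1 reads. All 4 AGM cells with Flt4 reads also had Kdr, Tie1 and Eng reads. Across the 48 cells, log2(CPM + 1) levels correlated most for Kdr and Flt4 (r = 0.50, resting on the 4 cells with Flt4) and for Flt1 and Tek (r = 0.44), and least for Tek and Eng (r = -0.06). These coefficients are descriptions, since the cells share libraries of unequal complexity. The number of genes detected per cell itself correlated with Kdr (r = 0.56), Flt1 (0.45), Tek (0.40), Flt4 (0.35), Tie1 (0.31) and Eng (0.27), whereas total reads did not (-0.05 to 0.11).

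**Figure D4:**
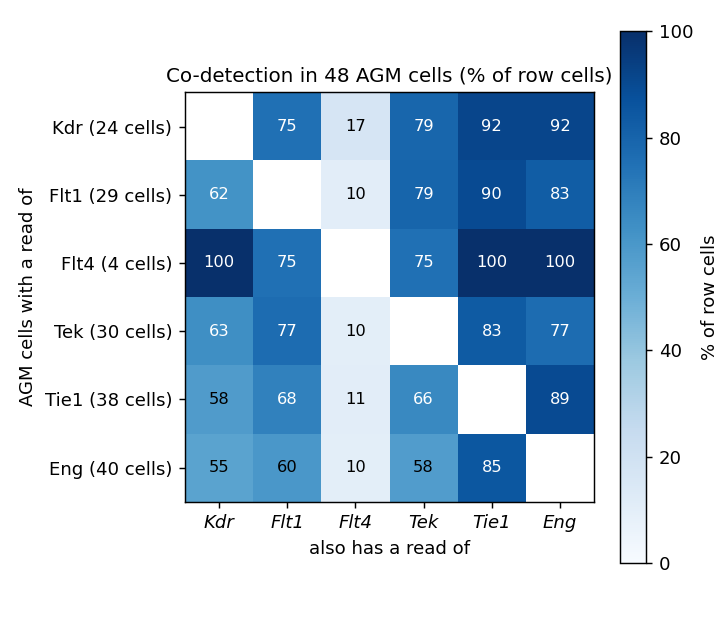
Co-detection among the 48 AGM cells: each square gives the percentage of cells with a read of the row gene that also had a read of the column gene. All 4 cells with Flt4 reads had Kdr, Tie1 and Eng reads, and 75% of cells with Kdr reads had Flt1 reads.

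The number of receptor genes per AGM cell moved with endothelial markers and with library complexity together. It correlated with the number of endothelial markers read (r = 0.58), with genes detected (r = 0.64) and less with the number of haematopoietic markers (r = 0.22). AGM cells with 4 to 6 receptor genes had a median of 10 of 12 endothelial markers and 6478.5 genes detected, and cells with 2 or 3 had medians of 8 and 5021. The part of complexity in these differences was not tested beyond the thinned shares above.

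Among 8822 genes ranked by correlation with each receptor gene except Flt4 over the 48 AGM cells, no receptor gene was among the 3 nearest of another. Flt4, read in 4 AGM cells, was not ranked. The nearest to Kdr were Hspg2, which encodes perlecan of the vascular basement membrane (r = 0.65), Pgm1 (0.63) and the tetraspanin gene Tspan9 (0.63). Flt1 was nearest to the G-protein subunit gene Gnb4, the paxillin gene Pxn and Rpap1, each at 0.59. Genes near Tek included Bckdha (0.59) and Zfp655 (0.59). Tie1 was nearest to Man1b1 (0.60), the lamin gene Lmnb2 (0.55) and Aspm (0.54), and Eng to Sdf2 (0.55), Nt5c3b (0.54) and Mrps26 (0.52). These are the highest of 8822 coefficients over 48 cells, without a test, and the number of genes detected per cell was not taken into account.

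Ptprc encodes CD45, a pan-leukocyte surface protein whose appearance marks a later step of pre-HSC maturation. In AGM, Flt1 was read in 22 of 28 cells with a Ptprc read (78.6%; 59.1 to 91.7%) and in 7 of 20 cells without (35%; 15.4 to 59.2%). At 250000 reads per cell the shares were 75% and 35%, and median genes detected were 5763.5 and 5425. Kdr was read in 14 of 28 and 10 of 20 of these cells, and Eng in 23 of 28 and 17 of 20. Tek was read in 19 of 28 and 11 of 20 cells and Tie1 in 24 of 28 and 14 of 20. In yolk sac, Kdr was read in 6 of 9 cells with a Ptprc read and in 0 of 7 without, and Flt1 in 6 of 9 and 2 of 7. The 3 yolk sac cells with more than 9000 genes detected all had Kdr reads, and of the other 13 cells 3 did. The part of genes detected in this difference was not tested. The relations of Flt1 and Kdr to Ptprc were picked out after the values were seen, from 6 receptor genes set beside Ptprc and the gate genes in every group. Flt1 and Ptprc also differed between the AGM runs of 16 labels: Ptprc was read in 12, 5 and 11 cells and Flt1 in 12, 8 and 9. The part of this run difference in their relation was not tested.

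The yolk sac cells could be divided by transcripts of their own gate. The 8 cells with a Cdh5 or Procr read had a median of 4 receptor genes, with Tie1 in 8, Tek in 7, Eng in 7, Flt1 in 5 and Kdr in 4. The 8 cells with neither had a median of 2, with Tie1 in 3, Eng in 3, Flt1 in 3, Kdr in 2 and Tek in 1. The former also had more genes detected (median 7498.5 against 4726), and the part of this in the difference was not tested. In AGM, where Cdh5 was nearly always read, cells with and without a read of Ly6a (Sca-1) had medians of 4 and 3 receptor genes.

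For comparisons between groups, the log2 ratio of pooled CPM was taken after adding 1 CPM, which understates the change of low genes, and a ratio of 4-fold or more was counted. All 6 genes were lower in yolk sac than in AGM by pooled CPM, with a median log2 ratio of -0.83 against -0.20 over all genes. Only Flt4 passed 4-fold, and 5.5% of the 15239 genes with at least 30 reads passed in that direction (2.09% in the other). At 2-fold, Flt4 and Tek passed, with 21% of all genes. The Flt4 ratio rests on 2 yolk sac reads and was 45.5-fold lower (12.47 to 377.9). Tek was 3.37-fold lower (3.07 to 3.71), Flt1 1.93-fold, Tie1 1.67-fold, Eng 1.62-fold and Kdr 1.19-fold (1.09 to 1.29). No share of cells fell by 30 percentage points, as 0.518% of all genes did, the largest difference being 20.8 points for Eng. The direction for Kdr turned without AGM cell 36 (log2 ratio 0.14) or without AGM cell 3 (0.13), so no direction is given for Kdr between the E11.5 tissues. No gene passed 4-fold when AGM cell 21 was left out, and Tek joined Flt4 without yolk sac cell 2.

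Between AGM pre-HSCs and E12.5 liver HSCs, all 6 genes were again lower, with a median log2 ratio of -1.78 against -0.20 over all genes. The 3 VEGF receptors passed 4-fold. Over all genes, 5.72% passed higher and 11.1% lower, or 16.1% of genes with at least 3 CPM in AGM, which alone could pass. In pooled reads, Kdr was at least 247-fold lower and Flt4 at least 25.9-fold lower, both bounds set by taking 3 reads as the E12.5 total. These bounds cover the counting of reads and not the spread between cells. By share of cells, 0 of 16 E12.5 cells allows up to 18.8% with Kdr, against 50.0% in AGM. AGM Flt4 was read in 4 of 48 cells, a share not distinguishable from 0 of 16 E12.5 cells. Flt1 was 4.93-fold lower (4.28 to 5.71) with E12.5 cell 3 included. At 2-fold, where 26% of all genes passed, Tek and Tie1 joined them. Tek was 2.62-fold lower (2.40 to 2.88), Tie1 2.56-fold (2.40 to 2.73) and Eng 1.52-fold (1.38 to 1.68). Without AGM cell 3 the Tek log2 ratio was -0.94, short of 2-fold. The share of cells decreased by 50.0 percentage points for Kdr, by 47.9 for Flt1 and by 35.4 for Tie1, and 7.99% of all genes were lower by at least 30 points, or 15.9% of genes read in at least 30% of AGM cells.

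The comparison of AGM with E12.5 liver kept its 3 calls at 4-fold without AGM cell 3 and without E12.5 cell 8. Flt4 fell short of 4-fold without AGM cell 36 (log2 ratio -1.84) or AGM cell 21, which left 2 calls, and without E12.5 cell 2 Tek joined the calls (-2.26). Among cells with fewer than 9000 genes detected (44 AGM, 13 yolk sac, 15 E12.5 and 16 E14.5 cells), Kdr alone passed, at a log2 ratio of -4.94, while Flt1 and Flt4 stood at -1.98 and -1.93. In the same cells yolk sac Tek was 4.40 CPM against 21.6 CPM with all cells, which made Tek the gene past 4-fold between yolk sac and AGM (-3.80) in place of Flt4 (-1.93). The 3 yolk sac cells left out by this limit therefore carried most of its Tek reads, and without them Tek passed 4-fold higher in E12.5 liver than in yolk sac (2.31).

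Yolk sac and AGM cells were of the same age and gate, so E12.5 liver was also set beside yolk sac. Kdr was at least 208.1-fold lower in E12.5 liver, the only gene past 4-fold, where 8.03% of all genes passed lower and 7.99% higher. This bound too is for pooled reads and does not cover the spread between cells. At 2-fold Flt1 joined Kdr, with 19.5% of all genes. Flt1 was 2.55-fold lower (2.17 to 3.003) and Tie1 1.53-fold lower (1.42 to 1.66), but the Tie1 log2 ratio was -0.02 without yolk sac cell 15. Tek was 1.28-fold higher (1.13 to 1.46) and Eng 1.06-fold higher (0.941 to 1.20), an interval that spans no difference. The Tek direction turned without E12.5 cell 2 (log2 ratio -0.55) and the Eng direction without E12.5 cell 10 (-0.21). The share of cells decreased by 37.5 points for Kdr and for Flt1, where 13% of all genes were lower by 30 points or more. The comparisons with AGM and with yolk sac share the E12.5 cells, and those of yolk sac and E12.5 liver with AGM share the AGM cells.

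Within the fetal liver, none of the 6 genes passed 4-fold between E12.5 and E14.5, where 8.45% of all genes passed lower and 8.87% higher. Tie1 was 1.57-fold lower (1.42 to 1.73), Eng 1.61-fold lower (1.41 to 1.86) and Tek 1.35-fold higher (1.21 to 1.51) at E14.5. Flt1 was 1.34-fold lower, but this rests on a single strongly positive cell at each age: the log2 ratio was 2.56 without E12.5 cell 3, and 1.07 by the mean of each cell's CPM. The Tek direction turned without E14.5 cell 13 (log2 ratio -0.74). No fold is given for Kdr or Flt4, with at most 1 read at either age.

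Beside the receptors, 110 genes were followed, from lists of ligands, co-receptors, signalling proteins, regulators and other receptor tyrosine kinases. Between AGM and E12.5 liver, 22 of these were 4-fold lower and 0 higher, where 11.1% and 5.72% of all genes passed. Between AGM and yolk sac 19 were lower and 1 higher (5.5% and 2.09% of all genes). Within the liver, 12 were lower and 7 higher at E14.5 (8.45% and 8.87% of all genes), which is near the share of all genes.

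Of the VEGF ligand genes, 0 of 4 passed 4-fold between AGM and E12.5 liver, with a median log2 ratio of 0.23. Vegfa stood at 13.5 CPM in AGM, 1.52 in yolk sac (0.392 without cell 1) and, in liver, 12.1 at E12.5 and 7.24 at E14.5, where a single cell held every read, and removing cell 2 left 5.59 CPM at E12.5. Vegfc, a ligand of Flt4, was 59.0, 23.9, 26.5 and 4.23 CPM in the 4 groups, with 14.1 CPM in yolk sac without cell 10 and 0.367 CPM at E14.5 without cell 7. Both neuropilin genes, which encode VEGF co-receptors, passed 4-fold lower at E12.5, but Nrp2 was read in 3 AGM cells and stood at 10.5 CPM in AGM and 1.55 CPM without cell 41, against 0.42 CPM at E12.5, which is short of 4-fold. Nrp1 was read in 16 AGM and 4 yolk sac pre-HSCs and, in liver, in 0 HSCs at E12.5 and 1 at E14.5, and its AGM level was 47.03 CPM, or 23.6 CPM without cell 3. In pooled reads, Nrp1 was at least 299-fold lower at E12.5 than in AGM, a bound that does not cover the spread between cells. Of 27 genes of VEGF receptor signalling, 4 passed lower and 0 higher, near the 11.1% of all genes that passed lower. They included Nos3, which encodes endothelial nitric oxide synthase (10.5 CPM in AGM and 0.472 at E12.5, all of the latter in cell 1), and the Src-family kinase gene Fyn (48.5 and 7.98 CPM, the latter 4.82 without cell 1).

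The Tek ligand gene Angpt1 was read nearly everywhere. Reads were found in 43 of 48 AGM and 14 of 16 yolk sac pre-HSCs, and in 14 E12.5 and 15 E14.5 HSCs, at 97.3, 82.5, 137 and 97.2 CPM. Angpt1 reads were thus present in most cells of every group. Of 10 Tie receptor partners and signalling genes, 1 (Tnip2) passed 4-fold lower at E12.5 and 0 higher. Ptprb, which encodes the endothelial phosphatase VE-PTP that acts on Tek, was 14.8 CPM in AGM, 7.17 in yolk sac (1.85 without cell 2) and, in liver, 3.94 at E12.5 from a single cell and 0 at E14.5.

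Among endoglin's co-receptors, 5 of 9 genes passed 4-fold lower at E12.5 and 0 higher, beside 11.1% lower among all genes. Acvrl1, which encodes the endothelial type I receptor ALK1 that partners with endoglin, was 21.3 CPM in AGM, 2.11 in yolk sac (0.0951 without cell 2), 0.0525 at E12.5 and 0 at E14.5. Bmpr1a was read in 15 AGM cells at 10.1 CPM (3.67 without cell 3) and in no cell of the other groups. Tgfbr2 was 33.6 CPM in AGM and 82.6 at E12.5, but 4.71 at E12.5 without cell 7. Acvrl1 was read in 11 AGM and 2 yolk sac cells, 1 E12.5 HSC and 0 E14.5 HSCs, where Eng was read in 40, 10, 11 and 8. Fewer cells thus had Acvrl1 than Eng reads in every group and not in liver alone. The ligand gene Tgfb1 held 39.2, 39.5, 35.8 and 27.5 CPM across the 4 groups. None of 7 SMAD genes passed 4-fold between AGM and E12.5.

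Of 17 regulators of the receptor genes, 4 passed 4-fold lower at E12.5 and 0 higher (11.1% of all genes lower), and 6 passed lower in yolk sac (5.5% of all genes). Etv2, the ETS factor that specifies haemangioblasts, was read in 18 AGM cells at 59.7 CPM (34.6 without cell 46) and stood at 0.807 CPM in yolk sac (0.0491 without cell 1) and 0 in both liver groups. Ets1 was 21.2 CPM in AGM, 0.628 in yolk sac (0.0951 without cell 2) and, in liver, 0.84 at E12.5 (0.44 without cell 16) and 4.52 at E14.5 (1.74 without cell 9). Sox7 was 22.5 CPM in AGM (8.51 without cell 3) and 0 at E12.5, and its 11.8 CPM at E14.5 came from a single cell. Kdr was nearly as high in yolk sac as in AGM, whereas Etv2 and Ets1, named for the size of their ratios, were not. All 17 regulators together had a median log2 ratio of -0.45 in yolk sac over AGM, and no relation of a regulator to Kdr was tested.

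Of 23 other receptor tyrosine kinase genes, 3 were 4-fold lower and 0 higher at E12.5, near the 11.1% of all genes that passed lower. Kit, the SCF receptor gene used in every gate, was 93.1, 101, 104 and 149.5 CPM in the 4 groups. Flt3, a class III receptor gene of early haematopoietic progenitors, was 51.1, 85.5, 187.5 and 158.3 CPM, opposite in direction to Kdr. Fgfr1 was 28.7 CPM in AGM, 16.8 in yolk sac (7.24 without cell 10), 1.73 at E12.5 (0.277 without cell 1) and 0.0486 at E14.5.

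**Figure D5:**
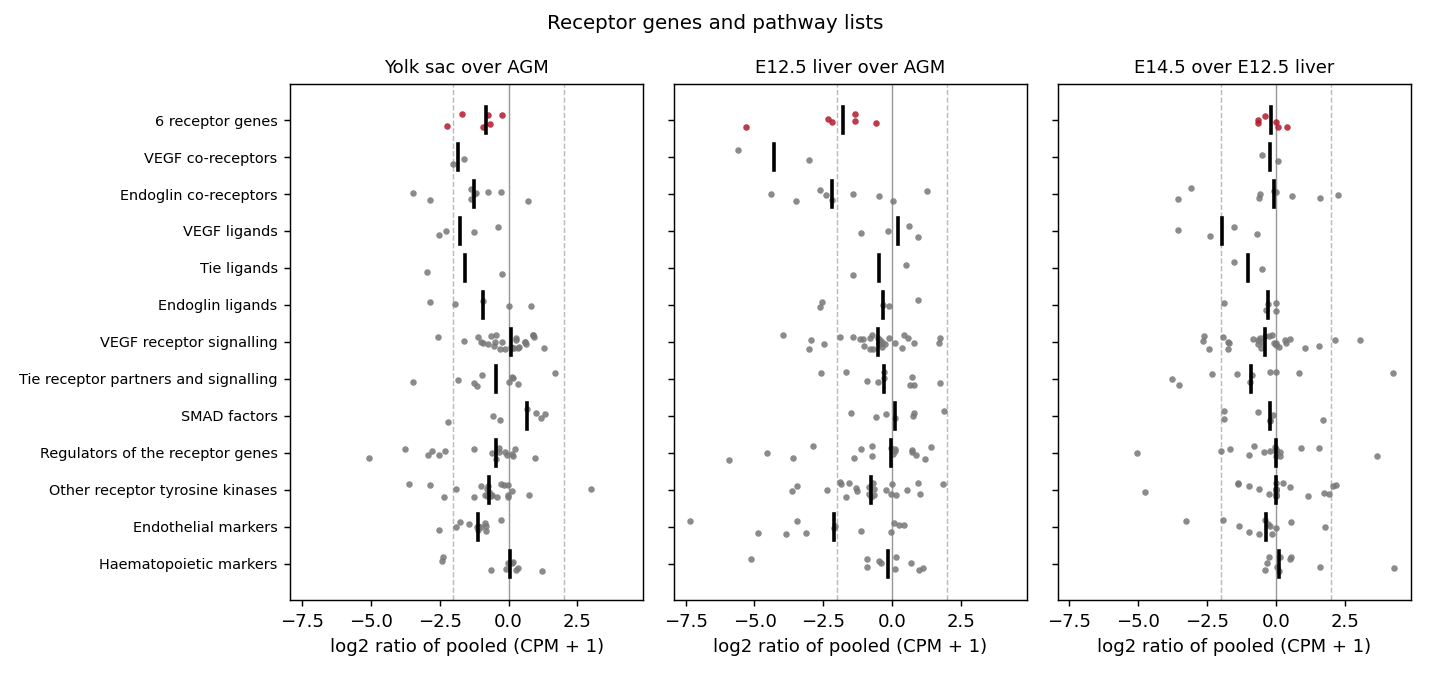
Log2 ratio of pooled (CPM + 1) for each receptor gene (red) and each tested gene of the other lists (grey), with the list median as a bar; dashed lines mark 4-fold, and Kdr and Flt4 are plotted near 0 in the E14.5 panel, where no fold can be given. In the panel of E12.5 liver over AGM, the receptor median is -1.78 and that of the endothelial markers -2.10.

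Endothelial and haematopoietic marker lists were set beside the receptors. Of 12 endothelial markers, 7 were 4-fold lower at E12.5 than in AGM, with a median log2 ratio of -2.10, where 11.1% of all genes passed lower, and all 12 were read in AGM and in yolk sac. Summed per cell, they ranged from 365 to 17116 CPM in AGM (median 2250), 289 to 3089 in yolk sac (1405), 7.99 to 3409 at E12.5 (1844) and 403 to 2686 at E14.5 (1153). Mmrn2 was at 0 in E12.5 liver, and Cldn5, Mmrn2 and Clec14a were at 0 in E14.5 liver. Cdh5 itself was 48.5 CPM in AGM and 13.5 in yolk sac and, in liver, 3.52 at E12.5 (0.175 without cell 2) and 0.194 at E14.5. Of 10 haematopoietic markers, 1 was 4-fold lower and 0 higher at E12.5, with a median of -0.15, and the median number read per cell was 8, 7, 6 and 7. By direction, 9 of the 12 endothelial markers were lower at E12.5 than in AGM and 3 higher. Log2 ratios were 0.41 for Robo4, 0.25 for Egfl7 and 0.08 for Esam, and Emcn was nearly unchanged at -0.04. Robo4 was read in 3 E12.5 cells at 8.24 CPM, or 4.13 CPM without cell 3, against 5.94 CPM in AGM. The list was thus divided, and its summed level at E12.5 had a higher median than in yolk sac, where Kdr was read. The number of endothelial markers read per cell went the other way, with medians of 9 in AGM, 5 in yolk sac and 4 at each liver age. The gate for CD144 cannot be told apart from tissue and age in these values.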

How the data were processed

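Single cells were sorted 1 per well and measured by full-length RNA sequencing. A single table of gene-level counts (raw reads, 96 cells) was deposited by the authors. The submitters' processing notes name FastQC, Trimmomatic 0.36, STAR, HTSeq and mm10, with no order or role. The annotation is not given in the sources used here, and whether counting used strand is not stated. No molecular identifiers are named, so counts are reads and not molecules.

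The table had 19949 rows, of which 113 repeated a symbol and were summed, giving 19836 genes. The 15239 genes with at least 30 reads were compared. All cells had at least 1000 genes detected, and 0 columns were unmapped. Doublets were not called, as sorting placed 1 cell per well. Groups hold 1 sample each, so no test was made. Intervals are exact at 95% and cover counting error only, because amplified reads are not separate molecules. A group with 0 reads was set to a floor of 3 reads, so such bounds are for pooled reads and do not cover the spread between cells. Alternatives were thinning each cell to 250000 or 690000 reads, a 10 CPM minimum or addition, median-of-ratios scaling, means of cells, at least 2000 genes per cell, AGM cells 1 to 16, and leaving out cells. Leaving out cells with more than 9000 genes, E12.5 cell 8, AGM cell 3 or the E14.5 cells rich in erythroid reads, splitting AGM at cells 17 and 33, thinning the cells split by Ptprc, and the background at 3 CPM were added after seeing the data. The calculation was tested on simulated counts. Python 3.11.15, pandas 2.3.3 and scipy 1.17.1 were used.

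The members and lists were chosen with earlier results of these data known. The text names all 6 receptor genes, sort-gate genes, the 3 genes most correlated with each receptor gene read in at least 10 AGM cells, and at most 4 genes per list. The latter had the largest ratios in size and were read in 20% or more of whichever group was higher. Single cells were named after their values were seen, as were Slamf1, Cd48, Ly6a and the endothelial markers. A gene that this rule names is not reported here. Listed genes Figf, Grb14, Gdf2, Bmp10, Smad9, Mst1r, Alb and Serpina1a were not analysed here. RefSeq promoters matched all 6 members. The Flt4 and Tie1 windows, which lie mostly in annotated exons, are not shown.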

Additional observations from a re-analysis of the deposited data

How the results depend on the processing

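No paired analysis was possible because cell numbers in the labels name no animal or litter and the results come from no test. Against AGM, the 6 log2 ratios kept their direction in 41 of 42 values under the other settings for yolk sac and in 41 of 42 for E12.5 liver. The exceptions were Flt4, which had no read in AGM cells 1 to 16 and then gave a log2 ratio of 0.12 in yolk sac and 0 in E12.5 liver. Leaving out genes with no fold, 22 of 24 values kept direction within liver and 29 of 30 between E12.5 liver and yolk sac. With AGM cells 1 to 16 only, the median number of receptor genes was 4.5 and AGM shares were 75% for Kdr, 75% for Flt1, 0% for Flt4 and 100% for Tie1. With cells 17 to 32 only, the shares were 81.2% for Tek and 62.5% for Tie1, and with cells 33 to 48 only, 25% for Kdr and 31.2% for Tek. Thinned to 250000 or 690000 reads, or at 10 CPM or more, the share was 0% for Flt4 in yolk sac and 0% for Kdr at E14.5.

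With 10 CPM added, 0 receptor genes passed 4-fold lower in yolk sac against AGM and 1 in E12.5 liver against AGM, with median log2 ratios of -0.60 and -1.17. At 2-fold, 2 were lower in yolk sac and 5 in E12.5 liver against AGM, and 2 in E12.5 liver against yolk sac. By a 30-point difference in share, the count was 0 for yolk sac against AGM and 2 for E12.5 liver against yolk sac. For yolk sac against AGM the median was -1.01 by the mean of cells, -1.07 when thinned and -1.05 without the deepest cells. For E12.5 liver against AGM it was -2.05 when thinned and -2.17 without the deepest cells. Leaving out each cell in turn, the yolk sac count ran from 0 (without AGM cell 21) to 2 (without yolk sac cell 2). The matching medians were lowest at -1.08, on omission of yolk sac cell 15, and highest at -0.67, on omission of AGM cell 3. For E12.5 liver against AGM the medians lay between -2.16 (E12.5 cell 2 omitted) and -1.59 (AGM cell 36 omitted). Within liver, 1 gene passed lower without E14.5 cell 2 and 1 higher without E12.5 cell 3, in both cases Flt1. Against yolk sac, 2 passed lower without E12.5 cell 3, and the median lay between -0.56 (E12.5 cell 14 omitted) and -0.078 (yolk sac cell 15 omitted). With 10 CPM added, the 110 listed genes past 4-fold were 1 lower and 0 higher in yolk sac against AGM, 2 lower in E12.5 liver against AGM, 2 lower and 2 higher within liver, and 1 lower and 0 higher in E12.5 liver against yolk sac. The added 10 CPM compresses ratios of genes at low levels by construction, and for the other alternatives the cause was not tested. A group of 16 cells limits a share with no read to 18.8%.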
